A study of Mus musculus with 12 samples.

Results

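The Hox cluster genes were taken as every gene whose platform symbol is Hox, a letter from a to d and a number, with 1 symbol per probe set and the brightest probe set per gene. They came to 36 of the 22180 genes measured, with 9 in HoxA, 10 in HoxB, 9 in HoxC and 8 in HoxD. RNA was read on 12 Affymetrix microarrays, 3 in each of 4 groups, which per the labels all carried the mouse genotype R26rtTA;Col1a12lox-4F2A, an inducible cassette of reprogramming factors. The groups were established iPS cells kept in mES medium, GFP-negative colonies labelled as reprogrammed, GFP-positive colonies labelled as partially reprogrammed, and NOTCH1 model leukemia cells taken from spleen. The colonies and the iPS cells are labelled as derived from the leukemia cells. What GFP marks is not given in the sources used here, and all 3 leukemia titles carry the same leukemia number. The arrays of a group are labelled as biological replicates. Nothing says which animals or cultures they came from, so a p-value here reflects only how far these arrays spread, which may be technical.

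Hox genes encode homeodomain transcription factors that give cells their position along the body axis. They lie in 4 clusters, and the paralogue number, from 1 to 13 here, follows the order of a gene in its cluster, with low numbers used toward the head and high numbers toward the tail and the ends of the limbs. Polycomb complexes keep the clusters silent in pluripotent cells, trithorax complexes such as MLL keep them active, and fibroblasts retain the Hox code of the body site they came from. In blood, HOXA genes act in stem and progenitor cells and are active in a subset of human T cell leukemias. The clusters also hold miRNA genes, among them the miR-196 family, which represses Hox messages.

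All 36 Hox genes matched the RefSeq gene table (GRCm38.p6) by Entrez identifier. Only Hoxb5 had more than 1 probe set. The annotated spans of Hoxd10 and Hoxd11, of Hoxb3 and Hoxb4, and of Hoxa3 with Hoxa4, Hoxa5 and Hoxa6 overlap, probes of paralogues can cross-hybridise, and which transcripts each probe set reads was not examined.

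The sequences below belong to the cluster genes on which the results turn. The mature miR-196 sequences, from RefSeq with GRCm38.p6, are shown because Mir196a-1 had the largest difference among the cluster transcripts measured, and the capitals mark the seed, bases 2 to 8.
mmu-miR-196a-5p: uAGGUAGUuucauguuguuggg
mmu-miR-196b-5p: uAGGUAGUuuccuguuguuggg
Both have the seed AGGUAGU. RefSeq lists the miR-196a-5p sequence at 2 loci, chr11:96265187-96265208 on the plus strand for Mir196a-1 and chr15:102973365-102973386 on the plus strand for Mir196a-2, and miR-196b-5p at chr6:52230129-52230150 on the minus strand. Mir196a-1 lies between Hoxb13 and Hoxb9, Mir196a-2 between Hoxc10 and Hoxc9, and Mir196b between Hoxa9 and Hoxa10. The hairpins of the 2 miR-196a genes differ outside the mature arm, which is in capitals.
Mir196a-1: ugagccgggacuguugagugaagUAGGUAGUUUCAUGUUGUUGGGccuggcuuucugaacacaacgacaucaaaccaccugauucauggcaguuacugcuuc
Mir196a-2: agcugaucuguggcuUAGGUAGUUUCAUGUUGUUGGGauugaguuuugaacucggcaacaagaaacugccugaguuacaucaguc

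Among the Hox genes called higher in iPS cells than in leukemia, Hoxd10, Hoxd13 and Hoxa9 have a start site in the RefSeq promoter table, and the 250 bases before it are shown. Capitals mark matches, on either strand and merged where they overlap, to 6 motifs. The TATA box was searched as TATAAA. The CCAAT box was searched by the letters of its name. The GC box was searched as GGGCGG. The nuclear receptor motif was searched as AGGTCA. The Meis motif was searched as TGACAG and the Pbx-Hox motif as TGATNNAT.
Hoxd10: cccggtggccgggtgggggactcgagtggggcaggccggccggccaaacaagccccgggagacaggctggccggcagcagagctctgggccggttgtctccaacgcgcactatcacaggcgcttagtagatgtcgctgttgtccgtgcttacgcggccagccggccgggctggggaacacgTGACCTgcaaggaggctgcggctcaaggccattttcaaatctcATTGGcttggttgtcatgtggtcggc
Hoxd13: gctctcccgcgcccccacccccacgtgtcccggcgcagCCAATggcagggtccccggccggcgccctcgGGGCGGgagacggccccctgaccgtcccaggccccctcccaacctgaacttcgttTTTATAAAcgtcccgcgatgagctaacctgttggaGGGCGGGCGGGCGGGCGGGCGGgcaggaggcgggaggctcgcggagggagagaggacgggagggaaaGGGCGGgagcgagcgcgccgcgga
Hoxa9: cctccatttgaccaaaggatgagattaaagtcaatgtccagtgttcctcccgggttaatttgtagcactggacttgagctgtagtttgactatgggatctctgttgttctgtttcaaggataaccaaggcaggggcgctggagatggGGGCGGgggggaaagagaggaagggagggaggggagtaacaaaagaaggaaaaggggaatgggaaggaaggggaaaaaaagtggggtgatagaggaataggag
They lie at chr2:74691641-74691890 on the plus strand for Hoxd10, chr2:74667975-74668224 on the plus strand for Hoxd13 and chr6:52227371-52227620 on the minus strand for Hoxa9 (RefSeq, GRCm38.p6). Hoxd10 has 1 CCAAT box and 1 nuclear receptor motif, Hoxd13 has 7 GC boxes, 2 TATA matches and 1 CCAAT box, and Hoxa9 has 1 GC box. The number of CpG dinucleotides was 20 for Hoxd10, 31 for Hoxd13 and 3 for Hoxa9. Its median was 12.5 over 22 upstream windows of 20 Hox genes, against 6 over all 32851 windows in the table. A CCAAT box was present in 59.1% of the Hox windows, against 33.8% of all. The corresponding shares were 45.5% against 32.7% for the GC box, 13.6% against 12.4% for the TATA box, 22.7% against 14% for the nuclear receptor motif, 9.09% against 15.9% for the Meis motif and 18.2% against 7.68% for the Pbx-Hox motif. These matches describe letters in the windows only.

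Hox levels varied little between the groups. In at least 1 of the 6 comparisons between groups, 9 of 36 Hox genes were called (25.0%), against 37.0% of all genes (limma, Benjamini-Hochberg adjusted p under 0.05 over all genes). The spread between the highest and the lowest group mean had a median of 0.26 on the log2 scale over the Hox genes, with a range of 0.10 for Hoxc4 to 0.79 for Hoxc12, against a median of 0.47 over all genes. It stayed under 0.5 for 28 of 36 Hox genes (77.8%), against 52.2% of all genes, and reached 1, a 2-fold difference, for 0 of 36, against 22.4% of all genes. The median SD over the Hox genes was 0.117 in iPS cells, 0.169 in GFP-negative colonies, 0.139 in GFP-positive colonies and 0.129 in leukemia, against 0.0998, 0.245, 0.217 and 0.105 over all genes in the same order. A filter on dim genes kept those whose highest group mean exceeded 6.20, the median log2 level over genes. It was passed by 3 of the 36 Hox genes, Hoxb9, Hoxd8 and Hoxd10, against 12467 of all 22180 genes. As a set the Hox genes were thus dimmer than the genes they are compared with. The part of this in their small spread was not tested. Signal over background was not measured, so whether a Hox gene was detected in a group was not assessed.

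In T lineage markers the leukemia lay far from the other groups, whose arrays overlapped. The mean log2 level of 7 measured T lineage markers was 5.56 to 6.09 on the iPS arrays, 5.34 to 6.29 on the GFP-negative arrays, 5.85 to 6.94 on the GFP-positive arrays and, on the leukemia arrays, 10.95 to 10.98. Pluripotency markers, 10 genes, averaged 9.37 to 9.43 on the iPS arrays and 5.47 to 5.82 on the leukemia arrays. In the colonies that mean was uneven, at 6.43, 9.21 and 9.52 on GFP-negative replicates 1, 2 and 3 and at 8.22, 9.38 and 7.01 on GFP-positive replicates 1, 2 and 3. GFP-negative replicate 1 and GFP-positive replicate 3 had the lowest means of their groups, and are called below the colony arrays that stood apart. The GFP-positive means were about evenly spaced, and no array was tested as an outlier.

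**Figure D1:**
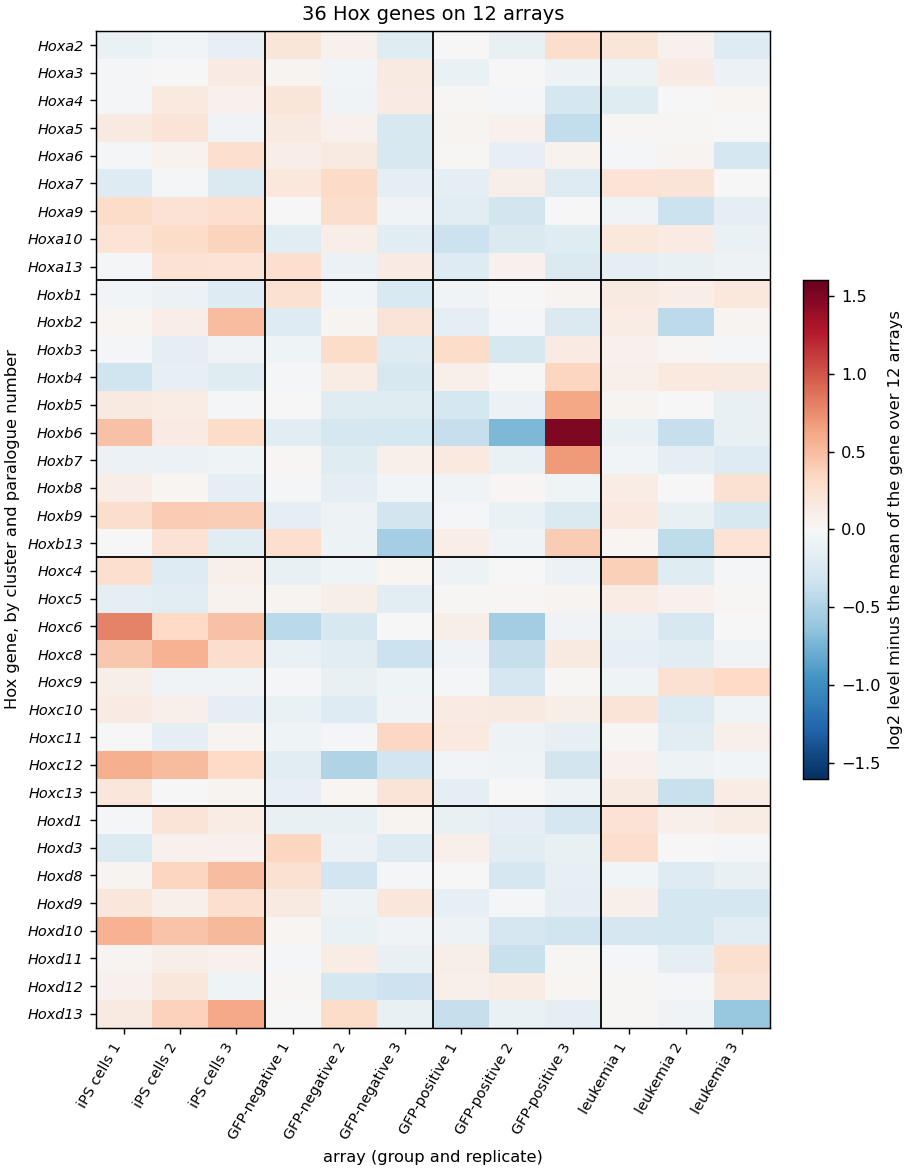
Log2 level of each of the 36 Hox genes (rows, by cluster and paralogue number) on each of the 12 arrays (columns, by group and replicate), minus the mean of that gene over the 12 arrays. Most cells are pale, the iPS columns are warm at Hoxa9, Hoxa10, Hoxb9, Hoxc6, Hoxc8, Hoxc12, Hoxd10 and Hoxd13, and the deepest cell is Hoxb6 on GFP-positive replicate 3, where it lay at 6.82.

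iPS cells had higher levels of 7 Hox genes than the leukemia, and 0 were called lower. The 7 were Hoxa9, Hoxb9, Hoxc6, Hoxc8, Hoxc12, Hoxd10 and Hoxd13, all by less than 2-fold. They made up 19.4% of the 36 Hox genes, against 12.4% of all 22180 genes called higher and 11.9% called lower. Called either way were 19.4% of the Hox genes and 24.3% of all genes. The median difference was 0.08 over the Hox genes and -0.03 over all genes, and with cyclic loess it was 0.16 over the Hox genes and 0.03 over all genes. All 3 iPS arrays lay above all 3 leukemia arrays for 11 Hox genes (30.6%, against 27.8% of all genes) and below them for Hoxa7, Hoxb1 and Hoxb4 (8.33%, against 28.7% of all genes).

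Hoxd10, a posterior gene used in the lumbar spinal cord and the limbs, lay at 6.80, 6.70 and 6.77 on the iPS arrays, at 6.28, 6.14 and 6.19 on the GFP-negative arrays, at 6.17, 5.98 and 5.93 on the GFP-positive arrays and at 5.98, 5.97 and 6.07 on the leukemia arrays. The iPS arrays were above every other array, with no overlap. Against leukemia the difference was 0.75 ± 0.10 (SE), or 1.68-fold (limma adjusted p = 0.000233, n = 3 arrays each). This was the Hox gene with the smallest adjusted p in that comparison, and its call was kept whichever of the 12 arrays was left out, with a highest adjusted p of 0.00194.

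Hoxd13, which acts in digit formation, lay at 5.32, 5.55 and 5.79 on the iPS arrays, at 5.17, 5.47 and 5.06 on the GFP-negative arrays, at 4.81, 5.08 and 5.03 on the GFP-positive arrays and at 5.20, 5.12 and 4.58 on the leukemia arrays. All 3 iPS arrays were above the leukemia and GFP-positive arrays, and GFP-negative replicate 2 was above 1 of them. The difference of iPS cells from leukemia was 0.59 ± 0.19, or 1.5-fold (limma adjusted p = 0.0459). The call was lost with the replicate number as a block (adjusted p = 0.0612) and when any 1 of 7 arrays was left out, and the difference was 0.39 without leukemia replicate 3. Among its paralogues the same difference was 0.25 ± 0.13 for Hoxa13, 0.07 ± 0.23 for Hoxb13 and 0.10 ± 0.15 for Hoxc13, and none of these was called.

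The HoxC cluster gave 3 of the 7 calls. Hoxc6 and Hoxc8, central genes of the trunk, and Hoxc12, a posterior gene, lie in a cluster where Hoxc9, Hoxc10 and Hoxc11 are the genes between Hoxc8 and Hoxc12. Hoxc12 lay at 6.01, 5.95 and 5.76 on the iPS arrays, at 5.27, 4.96 and 5.13 on the GFP-negative arrays, at 5.39, 5.37 and 5.15 on the GFP-positive arrays and at 5.51, 5.36 and 5.40 on the leukemia arrays. Hoxc8 lay at 5.48, 5.60 and 5.33 on the iPS arrays, at 4.94, 4.87 and 4.71 on the GFP-negative arrays, at 4.99, 4.68 and 5.19 on the GFP-positive arrays and at 4.92, 4.88 and 4.99 on the leukemia arrays. Both genes were higher on every iPS array than on any of the others. Hoxc6 lay at 5.70, 5.22 and 5.37 on the iPS arrays, at 4.47, 4.64 and 4.89 on the GFP-negative arrays, at 4.99, 4.34 and 4.85 on the GFP-positive arrays and at 4.80, 4.65 and 4.90 on the leukemia arrays. Its iPS arrays were also above the other 9, and its spread within groups was wide, from 0.13 (SD) in leukemia to 0.35 in GFP-positive colonies. Against leukemia the differences were 0.49 ± 0.12 for Hoxc12 (1.40-fold, limma adjusted p = 0.0126), 0.54 ± 0.14 for Hoxc8 (1.46-fold, adjusted p = 0.0146) and 0.65 ± 0.19 for Hoxc6 (1.57-fold, adjusted p = 0.0304). The neighbours differed by -0.16 ± 0.12 for Hoxc9, 0.05 ± 0.12 for Hoxc10 and -0.01 ± 0.14 for Hoxc11, and were not called.

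In HoxB only Hoxb9, a gene of the thoracic region, was called. It lay at 6.58, 6.71 and 6.70 on the iPS arrays, at 6.16, 6.22 and 6.01 on the GFP-negative arrays, at 6.27, 6.20 and 6.07 on the GFP-positive arrays and at 6.46, 6.18 and 6.05 on the leukemia arrays. The iPS arrays were again above the other 9, and leukemia replicate 1 came nearest to them. Against leukemia the difference was 0.43 ± 0.12, or 1.35-fold (limma adjusted p = 0.0249). Hoxb4, which expands blood stem cells when overexpressed, had all 3 iPS arrays below the leukemia arrays, at 5.15, 5.34 and 5.28 on the iPS arrays and at 5.55, 5.62 and 5.61 on the leukemia arrays. Its difference of -0.34 ± 0.12 was just outside the threshold (limma adjusted p = 0.0775).

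In HoxA only Hoxa9 was called, a gene of blood progenitors whose human counterpart is active in MLL-rearranged leukemias. It lay at 5.17, 5.11 and 5.15 on the iPS arrays, at 4.88, 5.16 and 4.83 on the GFP-negative arrays, at 4.70, 4.59 and 4.88 on the GFP-positive arrays and at 4.82, 4.54 and 4.74 on the leukemia arrays. The iPS arrays were above all leukemia and GFP-positive arrays and overlapped the GFP-negative group at replicate 2. Against leukemia the difference was 0.45 ± 0.12, or 1.36-fold (limma adjusted p = 0.0234). Its paralogues differed by 0.33 ± 0.13 for Hoxd9, which was just outside the threshold (limma adjusted p = 0.0799), and by -0.16 ± 0.12 for Hoxc9.

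The 12 arrays shared 1 estimate of the spread, and the count of 7 depended on single arrays. It was 1 without leukemia replicate 2, with Hoxd10 alone, 3 without leukemia replicate 3, 3 without iPS replicate 2 and 3 without iPS replicate 3, where 17.6% to 18.1% of all genes were called. Single arrays ended the call of Hoxc12 or Hoxc8 in 2 of 12 cases each, of Hoxb9 in 4, and of Hoxa9 or Hoxc6 in 5 each, with limma adjusted p up to 0.123. With only the 6 iPS and leukemia arrays in the fit, 14 Hox genes were called (38.9%, against 47.5% of all genes in that fit), 11 higher and 3 lower, and all 7 were among the 11. The 3 lower were Hoxa7, Hoxb1 and Hoxb4.

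**Figure D2:**
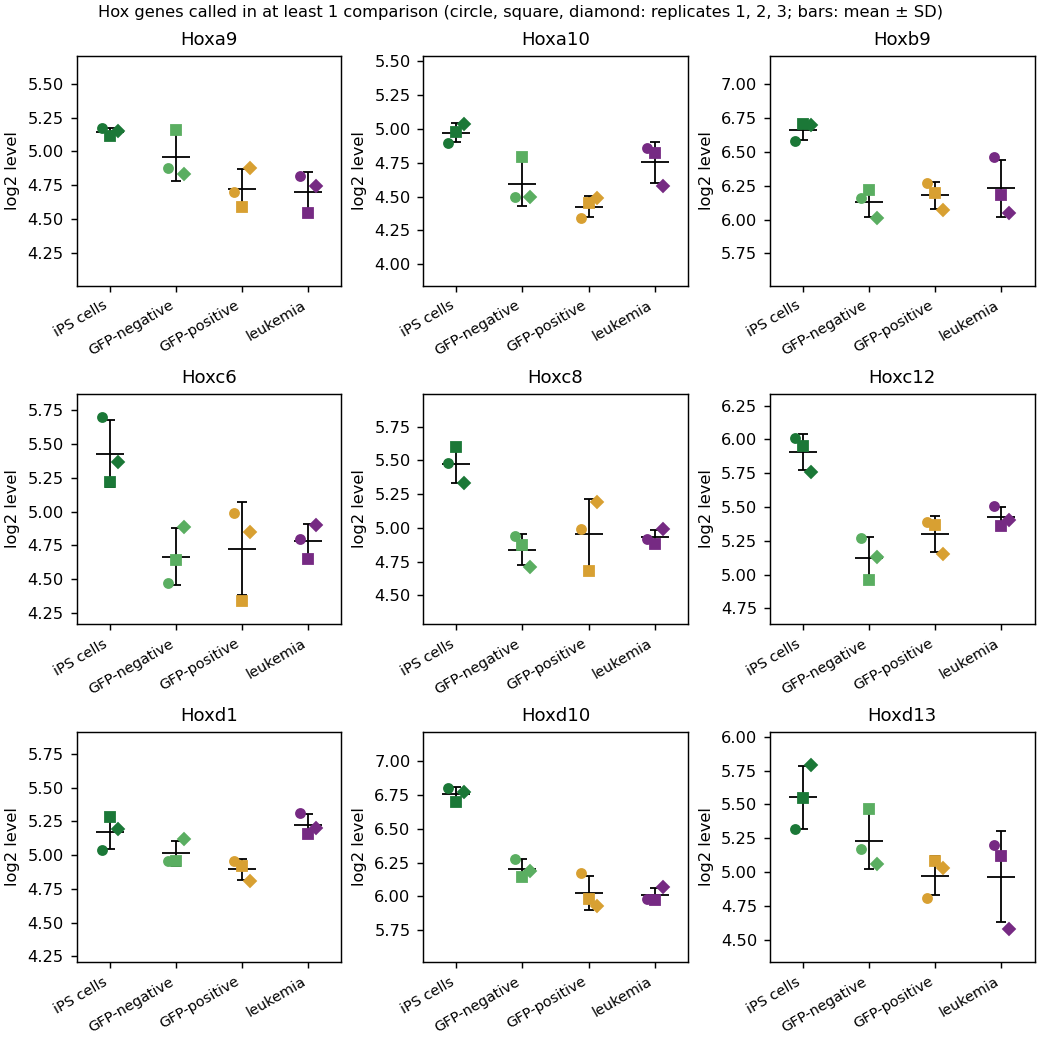
Log2 level of the 9 Hox genes called in at least 1 comparison, 1 panel per gene, with 1 point per array and the mean ± SD of 3 arrays as bars, for iPS cells, GFP-negative colonies, GFP-positive colonies and leukemia. Each panel spans the same height in log2 units from a different start, and for Hoxd10, Hoxc12, Hoxc8, Hoxc6, Hoxb9 and Hoxa10 all 3 iPS points lie above the other 9.

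iPS cells also had higher levels of 6 Hox genes than GFP-positive colonies, Hoxa10, Hoxb9, Hoxc6, Hoxc8, Hoxc12 and Hoxd10, and 0 were called lower. This was 16.7% of the Hox genes, against 6.15% of all genes called higher, 4.23% called lower and 10.4% called either way. The median difference was 0.14 over the Hox genes and 0.01 over all genes. The arrays did not overlap for 12 Hox genes higher in iPS cells (33.3%, against 21.0% of all genes) and for 1 lower, Hoxb4 (2.78%, against 17.1%). These comparisons share the iPS arrays, so a high or low iPS level moves all of them.

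Hoxa10, which acts in blood progenitors and in the uterus, was called in this comparison alone. It lay at 4.90, 4.98 and 5.04 on the iPS arrays, at 4.50, 4.79 and 4.50 on the GFP-negative arrays, at 4.34, 4.45 and 4.49 on the GFP-positive arrays and at 4.86, 4.82 and 4.58 on the leukemia arrays. The iPS arrays were above the other 9, with leukemia replicates 1 and 2 close beneath. The difference from GFP-positive colonies was 0.55 ± 0.12, or 1.46-fold (limma adjusted p = 0.0192). The remaining differences from GFP-positive colonies were 0.73 ± 0.10 for Hoxd10 (1.66-fold, limma adjusted p = 0.00272), 0.70 ± 0.19 for Hoxc6 (1.63-fold, adjusted p = 0.043) and 0.60 ± 0.12 for Hoxc12 (1.52-fold, adjusted p = 0.0142). Hoxc8 differed by 0.52 ± 0.14 (1.43-fold, limma adjusted p = 0.0383) and Hoxb9 by 0.48 ± 0.12 (1.4-fold, adjusted p = 0.0333). Hoxa9, at 0.42 ± 0.12 (limma adjusted p = 0.056), and Hoxd13, at 0.58 ± 0.19 (adjusted p = 0.076), were the nearest outside the threshold. The call of Hoxd10 was kept whichever array was left out, with a highest adjusted p of 0.0188. Single arrays ended the call of Hoxc12 in 2 of 12 cases, of Hoxa10 in 4, of Hoxb9 in 6, of Hoxc8 in 9 and of Hoxc6 in 10, with limma adjusted p up to 0.156. With only the 6 arrays of these groups Hoxc6 and Hoxc8 were not called, with the replicate number as a block Hoxc8 was not (adjusted p = 0.0648), and Hoxb9 was not with both colony arrays that stood apart left out. The count of 6 was 1 without iPS replicate 1, 1 without iPS replicate 2, 2 without iPS replicate 3, 2 without GFP-positive replicate 1 and 3 without leukemia replicate 2, where 2.69% to 6.54% of all genes were called.

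Against GFP-negative colonies iPS cells had higher levels of 4 Hox genes, Hoxb9, Hoxc8, Hoxc12 and Hoxd10, and 0 were called lower. This was 11.1% of the Hox genes, against 2.94% of all genes called higher, 1.32% called lower and 4.25% called either way. The median difference was 0.10 over the Hox genes and -0.02 over all genes. Non-overlapping arrays were seen for 7 Hox genes higher in iPS cells (19.4%, against 15.3% of all genes) and for 0 lower (11.8% of all genes). Hoxc12 had the largest difference, 0.79 ± 0.12, or 1.73-fold (limma adjusted p = 0.00711), and its call was kept whichever array was left out, with a highest adjusted p of 0.041. Hoxc8 differed by 0.63 ± 0.14 (1.55-fold, limma adjusted p = 0.0307), Hoxd10 by 0.56 ± 0.10 (1.47-fold, adjusted p = 0.0116) and Hoxb9 by 0.54 ± 0.12 (1.45-fold, adjusted p = 0.0369). Hoxc6, at 0.76 ± 0.19 (limma adjusted p = 0.0522), and Hoxa10, at 0.38 ± 0.12 (adjusted p = 0.105), were the nearest outside the threshold. Single arrays ended the call of Hoxd10 in 2 of 12 cases, of Hoxb9 in 7 and of Hoxc8 in 8, with limma adjusted p up to 0.138, and with the replicate number as a block Hoxc8 was not called (adjusted p = 0.0618) and Hoxc6 was. The count of 4 was 1 without iPS replicate 1, 2 without iPS replicate 2, 1 without iPS replicate 3, 2 without GFP-negative replicate 2 and 2 without leukemia replicate 2, where 1.13% to 3.51% of all genes were called. It was 0 when only the 6 arrays of these groups were fitted, against 0.857% of all genes.

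Across all 12 arrays, the 3 iPS arrays lay above the other 9 for 6 Hox genes, Hoxa10, Hoxb9, Hoxc6, Hoxc8, Hoxc12 and Hoxd10 (16.7%, against 7.89% of all genes), and below them for 0 (against 3.83%). The highest of the 4 group means was in iPS cells for 17 of 36 Hox genes (26.1% of all genes), in GFP-negative colonies for 3 (19.3%), in GFP-positive colonies for 8 (19.5%) and in leukemia for 8 (35.2%).

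The genes called higher in iPS cells had middle to high paralogue numbers. The classes were formed after the values had been seen, so they are described without a test. Of 7 anterior genes, paralogue groups 1 to 3, 0 were called higher than in leukemia, and their median difference was -0.10. Of 14 central genes, groups 4 to 8, 2 were called higher (14.3%), with a median of 0.09. Of 15 posterior genes, groups 9 to 13, 5 were called higher (33.3%), with a median of 0.22, against 12.4% of all genes called higher. Against GFP-positive colonies the counts were 0, 2 and 4 with medians of 0.04, 0.11 and 0.26 (6.15% of all genes called higher), and against GFP-negative colonies they were 0, 1 and 3 with medians of -0.05, 0.10 and 0.14 (2.94% of all genes), in the order anterior, central and posterior.

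**Figure D3:**
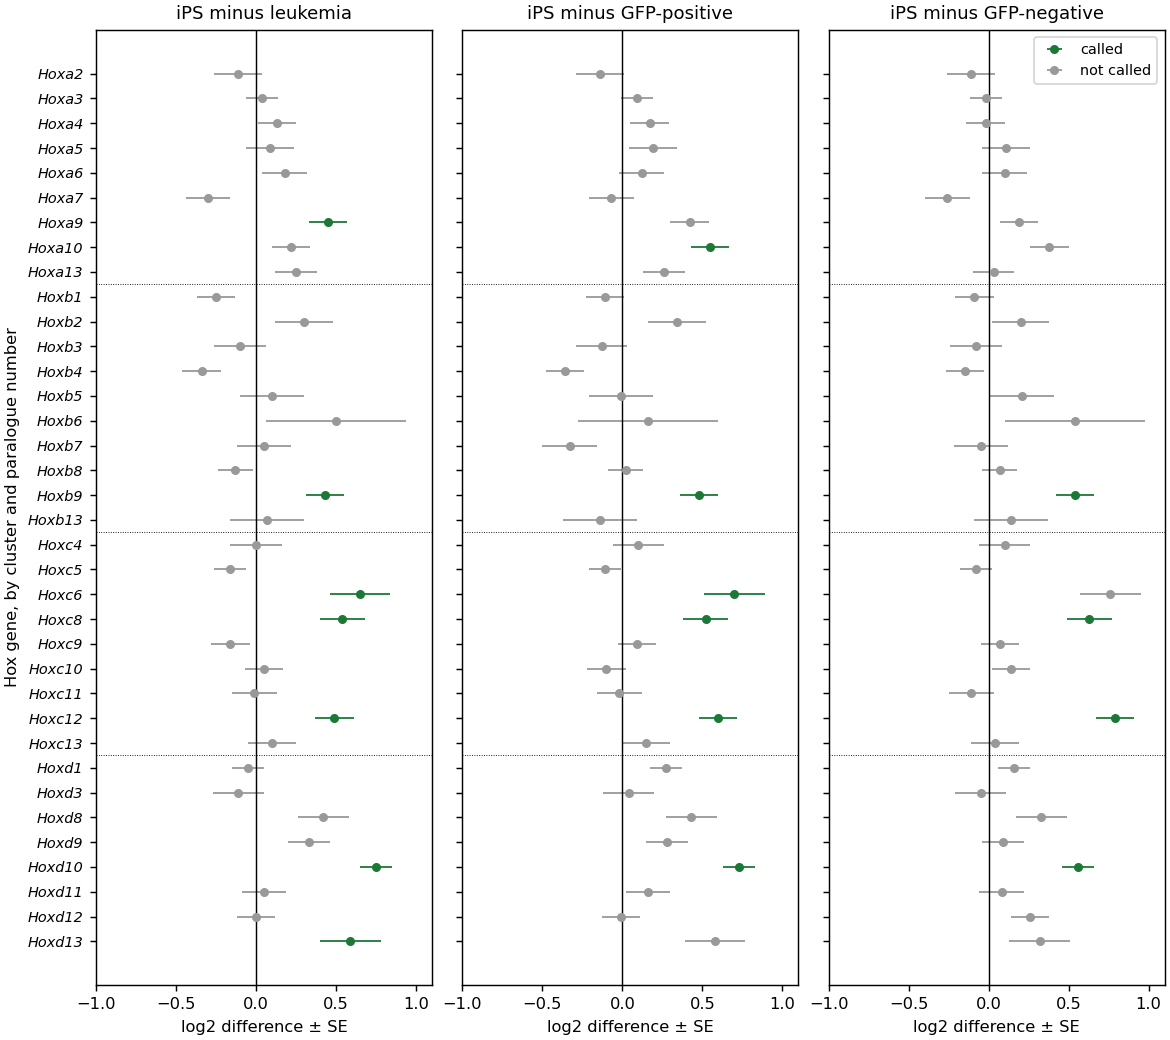
Log2 difference ± SE of iPS cells from leukemia (left), GFP-positive colonies (middle) and GFP-negative colonies (right) for each of the 36 Hox genes, with called genes (limma adjusted p under 0.05) in green. Called genes number 7, 6 and 4 in this order, all to the right of 0, and most of the other genes lie within 0.3 of 0.

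Fibroblast and mesenchymal markers moved with the iPS group as well. Of 15 such genes, 11 were higher in iPS cells than in leukemia and 1, Thy1, which T cells also express, was lower, or 80.0% against 24.3% of all genes called. Against GFP-positive colonies 10 of 15 were higher and against GFP-negative colonies 10 of 15, with 0 lower in either (66.7% each, against 10.4% and 4.25% of all genes called). The mean level of the list was 8.13 to 8.19 on the iPS arrays, 6.25 to 6.78 on the GFP-negative arrays, 6.53 to 7.41 on the GFP-positive arrays and, on the leukemia arrays, 6.28 to 6.39. Dcn, which encodes the matrix protein decorin, lay at 10.73, 10.64 and 10.81 on the iPS arrays, at 5.64, 6.25 and 4.93 on the GFP-negative arrays, at 6.83, 4.81 and 7.20 on the GFP-positive arrays and at 4.99, 4.72 and 4.60 on the leukemia arrays. The transcription factor gene Prrx1 lay at 8.39, 8.25 and 8.40 on the iPS arrays and at 6.00, 5.32 and 5.50 on the leukemia arrays. The scale has no true zero, so no marker can be called absent. Whether fibroblasts were present was not tested, nor was their part in the higher Hox levels. In bulk samples more cells of a type and more RNA per cell cannot be told apart.

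The colonies differed little from the leukemia in Hox levels. In GFP-negative colonies 0 of 36 Hox genes were called against leukemia, against 21.0% of all genes. At an unadjusted limma p under 0.05 there was 1 Hox gene, Hoxc12, against 32.8% of all genes. Its difference was -0.30 ± 0.12 (limma adjusted p = 0.105), with all 3 GFP-negative arrays below the leukemia arrays. The differences ran from -0.30 for Hoxc12 to 0.27 for Hoxd13, with a median of -0.04, against -0.01 over all genes. GFP-negative arrays did not overlap the leukemia arrays for 2 higher genes, Hoxa9 and Hoxd10 (5.56%, against 16.4% of all genes), and for 3 lower ones, Hoxb8, Hoxc12 and Hoxd1 (8.33%, against 20.9%). The count was 1 without GFP-negative replicate 1, Hoxd12, which was lower (2.78%, against 27.2% of all genes in that fit). With arrays weighted by their quality the count was 3, Hoxa9 higher and Hoxc12 and Hoxd12 lower (8.33%, against 39.1% of all genes in that fit).

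In GFP-positive colonies 1 Hox gene was called against leukemia, Hoxd1, which was lower. This was 2.78% of the Hox genes, against 12.3% of all genes called lower, 9.6% called higher and 21.9% called either way. All 3 GFP-positive arrays lay above all 3 leukemia arrays for 0 Hox genes (18.1% of all genes) and below them for Hoxa10, Hoxb1 and Hoxd1 (8.33%, against 23.8% of all genes). Hoxd1, an anterior gene that acts in pain-sensing neurons in mice, lay at 4.96, 4.92 and 4.81 on the GFP-positive arrays and at 5.31, 5.16 and 5.20 on the leukemia arrays. The GFP-positive arrays were all below the leukemia arrays, by -0.33 ± 0.10 (0.797-fold, limma adjusted p = 0.0416). On the iPS arrays it lay at 5.04, 5.28 and 5.19 and on the GFP-negative arrays at 4.96, 4.96 and 5.12. The call was lost when any 1 of 9 of the 12 arrays was left out, with adjusted p up to 0.145, and it was kept without GFP-negative replicate 1, GFP-negative replicate 3 or iPS replicate 1. It was also lost with the replicate number as a block, where the count was 0. Without GFP-positive replicate 2 the only Hox call was Hoxb7, which was higher. Hoxa10 was the next nearest, at -0.33 ± 0.12 (limma adjusted p = 0.0715). Over the 36 genes the median difference was -0.03, against -0.04 over all genes, and with cyclic loess these medians were 0.07 and 0.05.

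Between GFP-negative and GFP-positive colonies 0 Hox genes were called by limma, and 0.0% of all genes were. Without GFP-negative replicate 1, 4.59% of all genes were called, and with array weights 5.93%, with 0 Hox genes in either fit. At an unadjusted p under 0.05 there were 0 Hox genes, against 6.37% of all genes. The differences ran from -0.37 for Hoxb6 to 0.26 for Hoxd13, with a median of 0.02, against 0.03 over all genes. Arrays of these groups did not overlap for 1 gene higher in GFP-negative colonies, Hoxa10 (2.78%, against 4.31% of all genes), and for 2 lower, Hoxc10 and Hoxd12 (5.56%, against 2.23%).

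A few HoxB genes were high on 1 colony array. GFP-positive replicate 3 was the highest of the 12 arrays for 6 Hox genes, 5 of them in HoxB, Hoxb4, Hoxb5, Hoxb6, Hoxb7 and Hoxb13, and it was the highest array for 11.9% of all genes. Hoxb6, a trunk gene active in lateral mesoderm, lay at 5.79, 5.46 and 5.62 on the iPS arrays, at 5.16, 5.06 and 5.04 on the GFP-negative arrays, at 4.96, 4.60 and 6.82 on the GFP-positive arrays and at 5.22, 4.96 and 5.20 on the leukemia arrays. GFP-positive replicate 3 was 2.05 above the mean of the other 2 arrays of its group, more than any other array departed for any Hox gene. Hoxb7 lay at 4.46, 4.20 and 4.99 on the GFP-positive arrays, against a range of 4.10 to 4.39 on the other 9. The brightest probe set of Hoxb5 lay at 5.76, 5.95 and 6.66 on the GFP-positive arrays. Its second probe set lay at 5.85, 5.68 and 5.72 there, so the 2 probe sets of Hoxb5 disagreed on replicate 3.

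The mean of the 10 HoxB genes was 5.54 on GFP-positive replicate 3 and 5.04 to 5.29 on the other arrays. It included Hoxb6 at 6.82 and the brightest probe set of Hoxb5 at 6.66, so it does not show a rise shared by all 10 genes. The same array had the highest mean of 8 macrophage and granulocyte markers among the colonies, 7.45 against 5.78 to 6.80, and of 5 pan-haematopoietic markers, 8.78 against 6.32 to 7.51. The leukemia arrays lay at 8.33 to 8.39 in the macrophage and granulocyte list and at 10.64 to 10.67 in the pan-haematopoietic list. GFP-positive replicate 3 also had the highest mean of the fibroblast markers among the colonies, 7.41. Which cells these markers came from was not tested, nor was the part of any cell type in the HoxB levels. The SD of Hoxb6 was 1.19 in GFP-positive colonies, against 0.06 to 0.17 in the other groups, and its difference of iPS cells from leukemia carried an SE of 0.44. With GFP-positive replicate 3 left out, Hoxb6 was called higher in iPS cells than in leukemia.

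The non-coding genes of the clusters gave the largest difference. Of 17 on the list 7 were measured, and only Mir196a-1 was called (1 of 7, or 14.3%, against 24.3% of all genes), in iPS cells against leukemia, by 2.24 ± 0.54 or 4.74-fold (limma adjusted p = 0.0117). It lay at 6.50, 6.23 and 6.33 on the iPS arrays, at 4.71, 4.58 and 6.89 on the GFP-negative arrays, at 4.35, 5.78 and 4.92 on the GFP-positive arrays and at 3.98, 4.0 and 4.34 on the leukemia arrays. All iPS arrays were above the leukemia arrays, the colonies were spread over the range between, and GFP-negative replicate 3 was the highest array. The difference from leukemia was 1.29 ± 0.54 in GFP-negative colonies (limma adjusted p = 0.125) and 0.91 ± 0.54 in GFP-positive colonies (adjusted p = 0.28). Mir196a-1 was called in iPS cells against leukemia whichever array was left out, with a highest adjusted p of 0.0436. Mir196a-2, in HoxC, which gives the same mature sequence shown above, differed by -0.18 ± 0.16 (limma adjusted p = 0.49). Whether these probe sets read the precursor, the mature miRNA or a longer transcript was not examined.

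**Figure D4:**
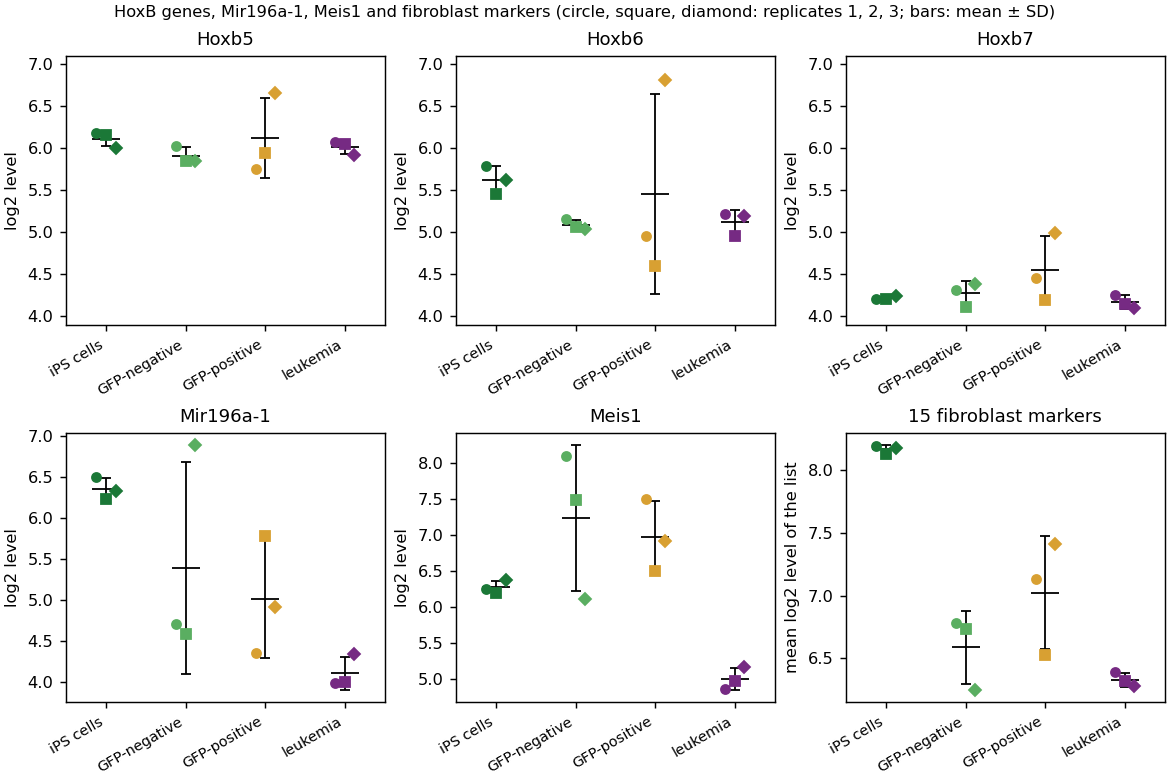
Log2 level of Hoxb5, Hoxb6, Hoxb7, Mir196a-1 and Meis1, and the mean log2 level of 15 fibroblast and mesenchymal markers, with 1 point per array and the mean ± SD of 3 arrays as bars. GFP-positive replicate 3 (diamond) stands above the others in the 3 HoxB panels, and the iPS arrays, between 8.13 and 8.19, stand above the others in the fibroblast panel.

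The TALE homeodomain proteins are cofactors that bind DNA together with Hox proteins, and 8 of 9 listed genes were measured. Against leukemia 2 of 8 were called in iPS cells (25.0%, against 24.3% of all genes), 4 of 8 in GFP-negative colonies (against 21.0% of all genes) and 4 of 8 in GFP-positive colonies (against 21.9%). In iPS cells 1 of 8, Pbx3, was called against GFP-positive colonies, where it was lower (12.5%, against 10.4% of all genes). Against GFP-negative colonies 0 of 8 were called in iPS cells (4.25% of all genes). Meis3, Pbx2, Pbx4 and Pknox2 were called in 0 of the 6 comparisons. Meis1, which acts with HOXA9 in leukemia, was higher than in leukemia in iPS cells by 1.27 ± 0.42 (2.42-fold, limma adjusted p = 0.0477), in GFP-negative colonies by 2.23 ± 0.42 (4.69-fold, adjusted p = 0.00328) and in GFP-positive colonies by 1.97 ± 0.42 (3.93-fold, adjusted p = 0.00639). The call in iPS cells was lost when any 1 of 8 arrays was left out, with adjusted p up to 0.131, and with the replicate number as a block. It lay at 6.25, 6.19 and 6.37 on the iPS arrays, at 8.09, 7.48 and 6.11 on the GFP-negative arrays, at 7.50, 6.50 and 6.91 on the GFP-positive arrays and at 4.86, 4.97 and 5.16 on the leukemia arrays, so that no array of the first 3 groups overlapped the leukemia. Pbx3, a further cofactor, was higher by 1.13 ± 0.24 in GFP-negative colonies (limma adjusted p = 0.00749) and by 1.63 ± 0.24 in GFP-positive colonies (adjusted p = 0.000825). Meis2 was higher by 1.61 ± 0.42 in GFP-negative colonies (limma adjusted p = 0.0198) and by 1.37 ± 0.42 in GFP-positive colonies (adjusted p = 0.0389), and both of its calls were lost when single arrays were left out, with adjusted p up to 0.0733 and 0.117. Pknox1 was lower in all 3 groups, by -1.01 ± 0.14 in iPS cells (0.498-fold, limma adjusted p = 0.000374), by -1.07 ± 0.14 in GFP-negative colonies (adjusted p = 0.000302) and by -0.96 ± 0.14 in GFP-positive colonies (adjusted p = 0.000583). These 3 comparisons share the leukemia arrays.

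Of 12 trithorax and MLL complex genes, which maintain Hox transcription, 2 were higher and 3 lower in iPS cells than in leukemia, 0 and 3 in GFP-negative colonies, and 0 and 3 in GFP-positive colonies. These were 41.7%, 25.0% and 25.0% of the list, against 24.3%, 21.0% and 21.9% of all genes called in the same comparisons. Kmt2a, which encodes the MLL methyltransferase, was lower by -0.90 ± 0.13 in iPS cells (0.535-fold, limma adjusted p = 0.000641), by -0.89 ± 0.13 in GFP-negative colonies and by -0.89 ± 0.13 in GFP-positive colonies. Mllt3 was lower in iPS cells than in leukemia by -1.33 ± 0.39 (0.397-fold, limma adjusted p = 0.0297). Ash2l was higher there by 1.16 ± 0.37 (2.24-fold, limma adjusted p = 0.0442). Both calls were lost when single arrays were left out, with limma adjusted p up to 0.0934 and 0.112. The histone demethylase gene Kdm6b was lower by -1.12 ± 0.14 in iPS cells (limma adjusted p = 0.000172), and by -0.53 with the mean of all its probe sets (adjusted p = 0.00375). Against GFP-positive colonies Rbbp5 and Kmt2b were higher in iPS cells and Kdm6b was lower (25.0%, against 10.4% of all genes). Against GFP-negative colonies Rbbp5 and Kmt2b were higher in iPS cells (16.7%, against 4.25% of all genes). Each of these calls against the colonies was lost when single arrays were left out, with limma adjusted p up to 0.162.

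Of 15 measured Polycomb genes, which repress Hox clusters, 5 were higher and 4 lower in iPS cells than in leukemia, 4 and 5 in GFP-negative colonies, and 4 and 4 in GFP-positive colonies. Called either way were 9, 9 and 8 of 15 in this order, against 24.3%, 21.0% and 21.9% of all genes. In iPS cells the PRC1 genes Phc1 and Pcgf2 were higher by 3.05 ± 0.53 (8.3-fold, limma adjusted p = 0.0018) and 2.31 ± 0.31 (4.97-fold, adjusted p = 0.000324), and Cbx8 and Bmi1 were lower, each by -1.36 (0.39-fold). Genes of PRC1 thus stood among both the higher and the lower ones. Outside PRC1, Jarid2 was higher in iPS cells than in leukemia by 1.96 ± 0.40 (3.9-fold, limma adjusted p = 0.00436).

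A list of 14 measured genes covered Cdx factors, retinoic acid and Gdf11, which regulate Hox genes in the embryo. Against leukemia 1 was higher and 1 lower in iPS cells, 1 and 1 in GFP-negative colonies, and 3 and 2 in GFP-positive colonies. This came to 14.3%, 14.3% and 35.7% of the list, against 24.3%, 21.0% and 21.9% of all genes. The retinoic acid receptor gene Rarg was higher in iPS cells by 1.42 ± 0.13 (2.68-fold, limma adjusted p = 1.81e-05), and the retinol dehydrogenase gene Rdh10 in GFP-positive colonies by 2.87 ± 0.59 (7.29-fold, adjusted p = 0.00583). The 3 Cdx genes were not called. None of the 6 ParaHox and neighbouring homeobox genes was called in any comparison, against 37.0% of all genes called in at least 1. Of 8 genes linked to T cell leukemia, most of them homeobox genes, only Lyl1, which is not a homeobox gene, was called. The call was in GFP-positive colonies, where the difference from leukemia was -0.59 ± 0.18 (limma adjusted p = 0.0402). It was lost when any 1 of 7 arrays was left out. The share called was 1 of 8, against 21.9% of all genes in that comparison.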

How the data were processed

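The deposited values, 1 for every probe set on each array, are on the log2 scale and were made by the authors with RMA per the submitters' processing notes. The software that ran RMA, with its version, is not given in the sources used here. Total RNA was extracted with Trizol per the labels' protocols. RMA includes quantile normalization, which takes out a shift shared by most genes. The medians of the arrays were between 5.76 and 5.82, with 0 values missing, and 0 pairs of arrays were identical. The number of arrays limits the precision.

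Of 41345 probe sets, 23521 had 1 symbol in the platform annotation, 1814 had several and 16010 none. The last 2 kinds were left out, and the brightest probe set per symbol left 22180 genes.

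The 12 arrays entered 1 fit with a mean for each group, made with limma 3.58.1 (R 4.3.3) and moderated by empirical Bayes. It gave 6 two-sided comparisons. Calls required an adjusted p under 0.05, by Benjamini-Hochberg across all genes. Differences are log2 ± SE. The steps were tested on simulated data. Every Hox gene was accounted for, and those called in at least 1 comparison were given on every array. From each other list, called members with large differences were named, at most 4 per comparison, or 1 more where differences tied. The members and lists were chosen with earlier results of these data known. Promoter and miRNA sequences came from RefSeq tables (GRCm38.p6), which were used otherwise for names and neighbours only.

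The alternatives were the mean of all probe sets of a gene, cyclic loess, leaving out dim genes, array weights, a mean trend with robust moderation, the 6 arrays of a comparison alone, the replicate number as a block, leaving out both colony arrays that stood apart, and leaving out each array. The labels do not say that a replicate number pairs arrays. Deviations of same-numbered arrays correlated at over 0.1 in 2 of 18 pairs, so the numbers were not taken as pairing.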

Additional observations from a re-analysis of the deposited data

How the results depend on the processing

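The 6 counts of called Hox genes moved with the fit more than the direction of any called difference, and no called difference of a named gene changed sign in any alternative run. Of the counts, GFP-positive colonies against leukemia was 1 as reported. It was 0 with cyclic loess, with the 6 arrays alone and with the replicate block. It was also 0 with both colony arrays that stood apart left out. In these fits 20.8% to 32.6% of all genes were called. With dim genes left out the count was 0 as well (38.3% of all genes). Hoxd1 did not pass that filter and was not tested there, so this 0 says nothing about its call. With array weights this count was 1 (36.9% of all genes), but the gene was Hoxa10 and not Hoxd1. GFP-negative colonies against leukemia, 0 as reported, was 1 with cyclic loess (21.1% of all genes), 3 with array weights (39.1%) and 2 with both colony arrays left out (32.9%). iPS cells against leukemia, 7 as reported, was 2 with dim genes left out (39.8% of all genes). Only 3 Hox genes were tested in that fit, in every comparison, each with its highest group mean in iPS cells. The count was 14 with array weights and 14 with the 6 arrays alone (38.9% each, against 47.5% of all genes in either fit). iPS cells against GFP-positive colonies, 6 as reported, was 2 with dim genes left out (21.1% of all genes). iPS cells against GFP-negative colonies, 4 as reported, was 2 with dim genes left out (6.87% of all genes). It was 7 with array weights (19.8%) and 0 with the 6 arrays alone (0.857%). GFP-negative against GFP-positive colonies was 0 in every alternative, while 4.59% of all genes were called without GFP-negative replicate 1, 4.73% with both colony arrays left out and 5.93% with array weights. The cause of these changes was not tested, apart from the fewer genes or arrays that an alternative holds. The weights ran from 0.148 for GFP-negative replicate 1 to 2.25 for iPS replicate 2, and their estimation stopped before full convergence.

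The median Hox difference moved with cyclic loess, to 0.07 in GFP-positive colonies and 0.16 in iPS cells against leukemia, where -0.03 and 0.08 were reported. With dim genes left out, the median of the 3 Hox genes tested was 0.09 in GFP-negative colonies against leukemia. For iPS cells it was 0.43, 0.48 and 0.54 against leukemia, GFP-positive and GFP-negative colonies. The filter keeps a gene by its highest group mean, which was in iPS cells for all 3. Hoxd8 passed through iPS cells alone, at 6.37 against 5.94 to 6.04 in the other groups. Hoxd10 had a mean of 6.76 in iPS cells, and its next highest, 6.20 in GFP-negative colonies, was level with the cut of 6.20 as rounded. Hoxb9 was above the cut in leukemia as well, at 6.23. These iPS medians therefore describe genes selected in part by a high iPS level.

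Leaving out each array in turn gave 0 to 1 for GFP-positive (Hoxd1 lower or, without GFP-positive replicate 2, Hoxb7 higher) and 0 to 1 for GFP-negative colonies against leukemia, 1 to 8 for iPS cells against leukemia, 1 to 7 against GFP-positive and 1 to 5 against GFP-negative colonies, and 0 to 0 between the colonies. Where an array was left out, its group kept 2 arrays, and the spread was pooled over all groups. With the replicate number as a block, the counts were 6, 5 and 4 for iPS cells against leukemia, GFP-positive and GFP-negative colonies. The shares of all genes in that fit were 23.0%, 8.63% and 3.33%. The count was 0 for GFP-positive (20.8% of all genes) and GFP-negative colonies (19.8%) against leukemia. Between the colonies it was 0 (0.0% of all genes). The block ended the calls of Hoxd13 against leukemia and of Hoxc8 against both colony groups, and added Hoxc6 against GFP-negative colonies. Same-numbered arrays had correlations of deviations of -0.377 to 0.322, and the labels state no pairing.

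Cyclic loess moved the share of higher genes among all calls to 57.1%, against 43.9% as reported, in GFP-positive colonies against leukemia, to 53.4%, against 43.0%, in GFP-negative colonies against leukemia, and to 48.3%, against 59.2%, in iPS cells against GFP-positive colonies. It kept all 7 Hox calls of iPS cells against leukemia and added Hoxd8 and Hoxd9 (25.0%, against 24.8% of all genes in that fit). The alternatives for the cofactor, regulator and non-coding genes were added after seeing the data. Signal over background was not measured, and most Hox probe sets were dim, which limits what the small differences can show.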
